A study of Homo sapiens with 12 samples.

Results

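The 128 features described here had fewer reads in HSC-3 cells given CPA with synta-66 than in cells given CPA, although CPA itself left their mean level close to that of untreated cells. HSC-3 is a human oral squamous carcinoma cell line. Its RNA was sequenced in 3 groups of 4 libraries each. The groups were untreated cells, cells exposed for 3 hours to cyclopiazonic acid (CPA) at 25 µM, and cells exposed in the same way to CPA and synta-66 together. The sources used here give no dose of synta-66. A group with synta-66 alone was not analysed here, so an action of synta-66 that needs no CPA cannot be told apart from one that does. The labels name no separate cultures behind the 4 libraries of a group, and p-values therefore measure the spread between these libraries, which may be technical.

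The members were chosen from read counts scaled to a common library size (CPM) on TMM-scaled library sizes, where TMM is edgeR's scaling for differences in library composition. A feature had to have a mean of at least 10 CPM over the 12 libraries, a ratio of CPA to untreated group means between 0.8 and 1.25, and a ratio of CPA with synta-66 to CPA of at most 0.67. Of 60675 features in the files, 4525 reached 10 CPM, 3102 of those stayed within the CPA window and 130 met the whole rule. No mitochondrial feature was among them. CYP1B1-AS1 and HMGA2-AS1 were left out by the rule, which gave 128 members, and all 128 also passed the study's filter on low counts. Because group means over these libraries chose the members, their own levels below are descriptions and carry no test.

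Calcium stored in the endoplasmic reticulum is kept there by the SERCA pump, which CPA inhibits. When the store empties, STIM proteins in its membrane sense the loss and open ORAI channels at the cell surface, and the calcium that enters can act on gene expression through calcineurin and NFAT, among other routes. Synta-66 is an inhibitor of ORAI channels. The members were chosen by how their reads moved and not as targets of this pathway.

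The strand of a read matters for what a member is. Reads from coding genes often lie in these files at a feature annotated on the other strand, so a member's reads may come from its own transcript or from the gene facing it, which cannot be told apart. Each member was therefore paired with any coding gene on the other strand with exons that share 30 or more bases with its own exons in GENCODE 44 on GRCh38. By this rule 65 members lay opposite a coding exon, 59 of them opposite 1 coding gene and 6 opposite 2, for 70 coding genes in all. Another 21 overlapped the span of a coding gene on the other strand but shared fewer than 30 exon bases with it. By the same limit of 30 bases, 16 lay opposite noncoding exons only. A further 24 had no coding gene and no such noncoding exon on the other strand, and 2 are not in GENCODE 44. Members opposite a coding exon were 51.6% of the annotated members, against 75.6% of the 3019 annotated features in the CPA window. Of the members, 83 are annotated as protein-coding, 37 as lncRNA, 3 as TEC (transcripts that await experimental evidence), 1 as a processed and 2 as unprocessed pseudogenes.

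The 12 libraries held 2819486 to 5458858 reads assigned to genes. Mitochondrial ribosomal RNA took 0.165% to 53.5% of them, with 39.6% in untreated replicate 3, 53.5% in CPA with synta-66 replicate 1 and 49.4% in its replicate 4. Reads in no annotated feature made up 90.5% to 96.3% of the uniquely aligned reads. At their own locus, 11 of 13 squamous and keratin markers had a mean of at least 1 CPM, and 1 of 14 fibroblast, immune and endothelial markers did. At opposite features, 4 of the 13 and 0 of the 14 were tested. Reads at a marker's own locus may come from a gene facing it, so these shares cannot establish the cell label.

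Relative to the CPA mean of each member, the median member stood at 0.918, 1.12, 0.988 and 0.968 in the 4 CPA libraries and at 0.936, 0.928, 0.972 and 0.925 in the 4 untreated libraries. In the 4 libraries with synta-66 it stood at 0.564, 0.607, 0.564 and 0.582. Members were chosen by these group means, so the gap to the other 8 libraries follows from the rule. Of the 4, the pair rich in mitochondrial ribosomal RNA (replicates 1 and 4) stood at 0.564 and 0.582. Replicates 2 and 3 stood at 0.607 and 0.564. Without the 3 libraries richest in that RNA, 95 of the 128 members met the rule. CPA replicate 2 was the highest library.

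**Figure D1:**
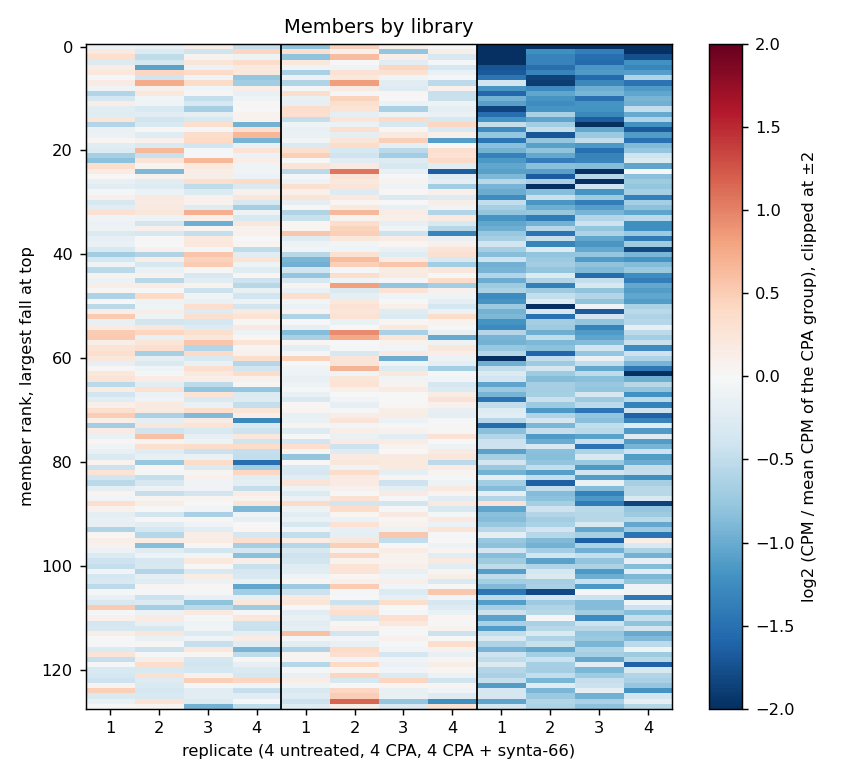
Level of each of the 128 members (vertical axis, ordered by the size of the fall) in the 12 libraries (horizontal axis), as log2 of its CPM over the CPA group mean, with colours clipped at ±2. The 4 libraries with CPA and synta-66 are blue in nearly every line, with 126 to 128 of 128 members below the CPA mean, while the untreated and CPA libraries stay close to white.

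The ratio of CPA with synta-66 to CPA ran from 0.153 to 0.6699 with a median of 0.594. It was at most 0.5 for 18 members and at most 0.33 for 3. Against untreated cells the ratio of the group with synta-66 had a median of 0.627 and a range of 0.168 to 0.820. The limits of the rule together place every member below its untreated mean, so this was fixed in advance. CPA over untreated had a median of 1.07. All 4 libraries with synta-66 lay below all 4 CPA libraries for 87 members (11.6% of the features of at least 10 CPM do so), and below all 4 untreated libraries for 65 members (7.03%). In edgeR's fit of all features, where a call needs an adjusted p under 0.05 and at least 1.5-fold, 76 members were called lower with synta-66 than with CPA and 51 lower than in untreated cells. Of all 14911 tested features, 2.82% and 1.24% were. The rule used these contrasts, and nothing is read from the counts.

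Most members were modest in level. The mean over 12 libraries ran from 10.02 to 456 CPM with a median of 18.3, and 70 members were under 20 CPM. The median read count of a member in a library was 73 and the lowest was 3. Members together held 7096, 13525, 11708 and 7117 reads in the libraries with synta-66 (replicates 1 to 4). They held 18402 to 24837 reads in CPA libraries and 15872 to 24249 in untreated libraries. The TMM factors of synta-66 replicates 1 and 4 were 0.452 and 0.513, against 0.732 to 1.33 in the other libraries. The median coefficient of variation of a member was 17.5% in untreated, 18.2% in CPA and 25.1% in CPA with synta-66 libraries. The values nearest the threshold were 0.668 for ITGA11, 0.668 for ENSG00000261396 and 0.6699 for CHERP on the inside, and 0.671 for KHDC1-AS1, 0.671 for POGK and 0.672 for STAG3 on the outside.

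**Figure D2:**
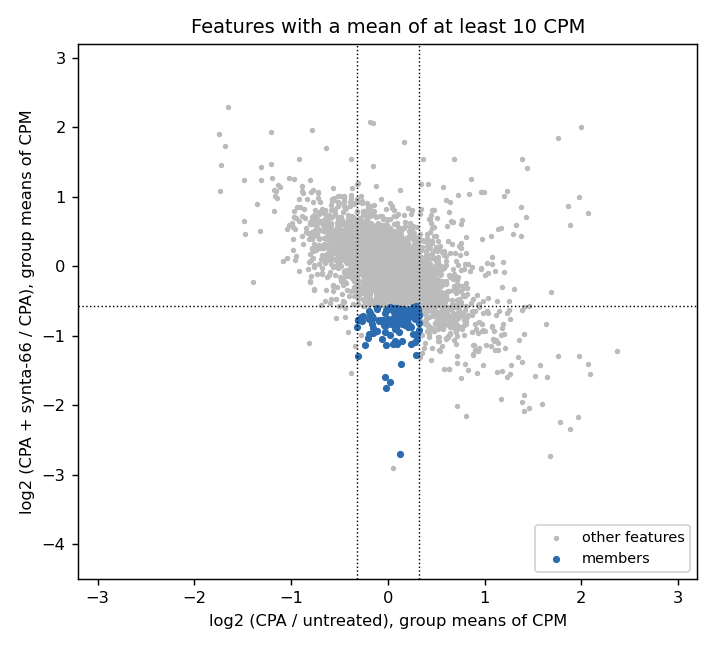
Each point is a feature with a mean of at least 10 CPM, with log2 of CPA over untreated on the horizontal axis and log2 of CPA with synta-66 over CPA on the vertical axis, both from group means, and dotted lines at the limits of the rule. The members (blue) fill the lower part of the CPA window down to GPC1-AS1, whose ratio was 0.153, and the grey point beneath is CYP1B1-AS1, which the rule left out (7 features lie outside the axes).

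The members with the most reads carried the pattern with the least counting error. GGCX, which encodes the gamma-glutamyl carboxylase of vitamin K metabolism, lies at chr2:85544720-85561532 opposite MAT2A, the gene of the enzyme that makes the methyl donor S-adenosylmethionine. It had 477, 535, 542 and 472 CPM in untreated cells, 483, 484, 539 and 604 CPM with CPA, and 290, 325, 355 and 365 CPM with synta-66 added. The highest library with synta-66 was below the lowest of the other 8.

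IER5L-AS1 on chromosome 9 lies opposite IER5L, a relative of the immediate early gene IER5. Its values were 250, 236, 212 and 272 CPM untreated, 275, 215, 259 and 273 CPM with CPA, and 129, 142, 112 and 161 CPM with synta-66. HOOK2, a gene for a microtubule linker protein, overlaps 259 bases of JUNB exon on the other strand, and JUNB encodes a subunit of the AP-1 transcription factor. HOOK2 had 154 ± 25.1 CPM untreated, 191 ± 21.3 with CPA and 120 ± 10.4 with synta-66 (mean ± SD, n = 4). Its libraries with synta-66 lay below all CPA libraries but reached up to 129 CPM, above the lowest untreated library at 122 CPM.

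NFE2L3, which encodes a transcription factor related to NRF2, is opposite HNRNPA2B1, a gene for an RNA-binding protein of splicing and mRNA transport. It stood at 160 ± 14.2, 158 ± 27.4 and 102 ± 13.1 CPM in untreated, CPA and synta-66 libraries (SD, n = 4). ENSG00000237126, opposite the cap-binding protein gene EIF4E2, stood at 99.2 ± 11.7, 120 ± 10.5 and 78.2 ± 16.1 CPM (SD, n = 4). For both features all libraries with synta-66 were below all CPA libraries.

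CCDC85B, which encodes a small coiled-coil protein, has no feature on the other strand. It had 208, 242, 235 and 209 CPM untreated, 115, 220, 223 and 165 CPM with CPA, and 56.7, 71.4, 82.8 and 84.1 CPM with synta-66. The CPA libraries were spread widely and still did not reach down to those with synta-66. For CCDC85B the ratio of CPA to untreated was 0.809, near the limit of 0.8. Leaving out untreated replicate 1 or 4, or CPA replicate 2 or 3, took it out of the rule. The 3′ end of FOSL1, another AP-1 gene, lies 414 bases from it on the other strand.

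**Figure D3:**
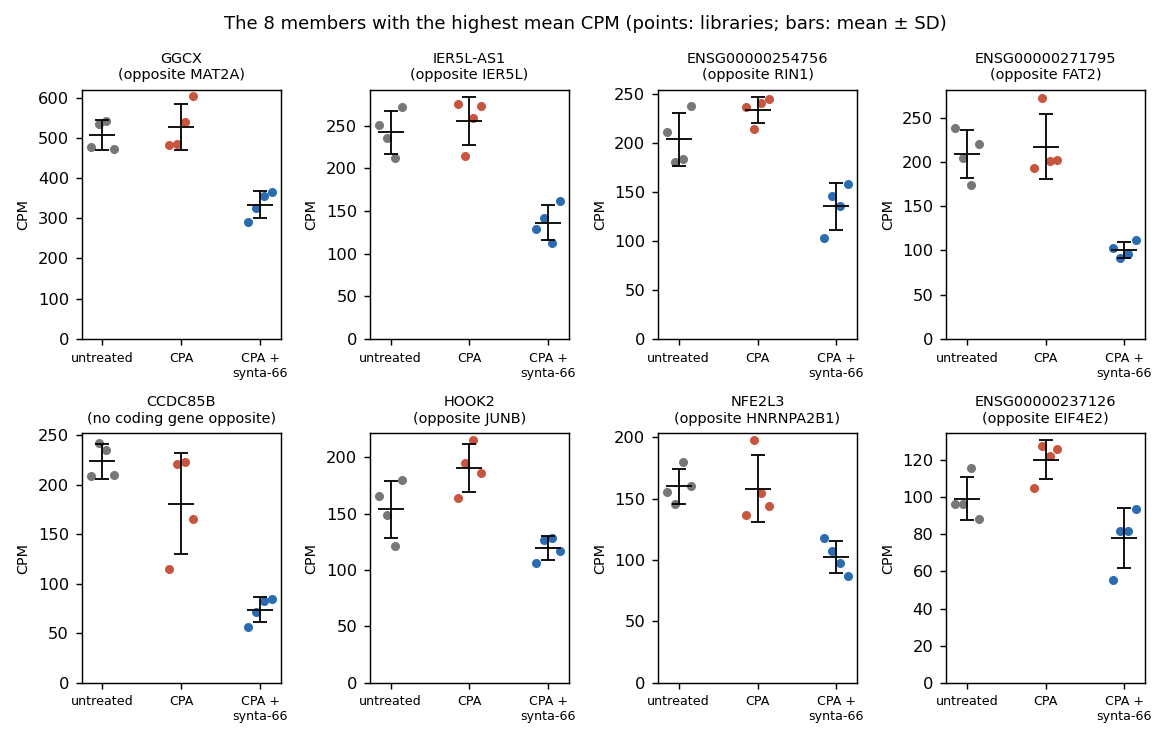
CPM in each library (points) for the 8 members with the highest mean, with mean ± SD over 4 libraries (bars) and a separate vertical axis from 0 in each panel. In all 8 panels the libraries with synta-66 lie below every CPA library; in the HOOK2 and ENSG00000237126 panels they overlap the untreated ones.

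The lowest ratios, those of GPC1-AS1, USP24, FAM13A, PAK6-AS1 and DDR1, came from members with means of 10.2 to 16.4 CPM. CCDC85B (0.408), PIAS1 (0.455) and ENSG00000271795 (0.462) were also among the 12 lowest, at means of 159, 57.9 and 176 CPM. GPC1-AS1 (chr2:240449315-240456714) lies within the span of GPC1 without meeting its exons; GPC1 is the gene of a heparan sulfate proteoglycan of the cell surface. It had 17.2, 17.2, 20.7 and 13.7 CPM untreated, 10.7, 25.7, 20.1 and 18.5 CPM with CPA, and 3.24, 2.45, 1.48 and 4.33 CPM with synta-66. The ratio of 0.153 was the lowest of all members, and the libraries with synta-66 lay below the other 8.

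USP24, a deubiquitinase gene, stood at 16.9 ± 4.54 CPM untreated, 16.7 ± 4.88 with CPA and 4.96 ± 2.13 with synta-66 (SD, n = 4). FAM13A, a gene linked to lung function, stood at 14.5 ± 3.38, 14.7 ± 6.06 and 4.64 ± 1.11 CPM in the same order. PAK6-AS1, opposite the p21-activated kinase gene PAK6, stood at 13.3 ± 3.33, 13.01 ± 1.58 and 4.31 ± 1.60 CPM. In all 3 the synta-66 libraries were below every other library.

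DDR1, a receptor tyrosine kinase for collagen, had 23.9, 10.2, 19.7 and 24.4 CPM untreated, 20.1, 20.1, 28.8 and 16.8 CPM with CPA and 6.48, 7.58, 9.61 and 8.67 CPM with synta-66, a ratio of 0.377 with the libraries with synta-66 below the other 8. LRP4-AS1, opposite the lipoprotein receptor family gene LRP4, had a ratio of 0.411, and its 9.53 CPM in 1 library with synta-66 was above the 8.43 CPM of 1 untreated library. PIAS1, a SUMO ligase gene opposite the calmodulin-like gene CALML4 and opposite ENSG00000260007, stood at 71.4 ± 5.46 CPM untreated and 70.3 ± 8.63 CPM with CPA (SD, n = 4) and at 31.2, 29.0, 35.7 and 32.1 CPM with synta-66, below all other libraries.

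IRF2BPL, a transcriptional regulator gene, had a ratio of 0.460, and so had UPK2, a uroplakin gene that meets 54 exon bases of BCL9L, the gene of a beta-catenin cofactor. STXBP5L, a gene of vesicle release, had a ratio of 0.454, but 1 library with synta-66 (18.6 CPM) was above CPA libraries at 15.8 and 16.8 CPM. CPA replicate 2 held 42.8 CPM, and without it the log2 ratio of STXBP5L moved to -0.72.

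The remaining members opposite coding exons are described by what the coding gene does, a grouping made by hand from general knowledge. It covered 46 of the 70 genes. Cell surface, adhesion and matrix genes were paired with 10 members at ratios of 0.411 to 0.643. They were LRP4, LRP8 (MAGOH-DT), FAT2 (ENSG00000271795), PSCA (JRK), the laminin gene LAMA5 (LAMA5-AS1), the peptide receptor gene VIPR1 (VIPR1-AS1), the Wnt receptor gene FZD4 (PRSS23), PKD1 (ENSG00000261240), LRIG2 (RLIMP2) and the heparan sulfatase gene SULF2 (ENSG00000255438). LAMA5-AS1, for example, went from 23.4 CPM with CPA to 12.1 with synta-66, and VIPR1-AS1 from 47.5 to 27.7.

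Kinases and pathway signalling genes were paired with 13 members at ratios of 0.331 to 0.656. The kinase genes were PAK6, TAOK1 (ENSG00000264808), SRPK2 (KMT2E), STK17A (COA1), TNK2 (TNK2-AS1, also opposite ENSG00000289747), RIPK4 (ENSG00000236883) and EEF2K (ENSG00000261113). The others were BCL9L, SMAD5 (SMAD5-AS1), the RAS effector gene RIN1 (ENSG00000254756), the ubiquitin pathway genes PELI3 (DPP3-DT, also opposite DPP3) and UBE2N (NUDT4), and NKIRAS1 (UBE2E1). ENSG00000236883, opposite RIPK4, a kinase of keratinocyte differentiation, went from 67.2 CPM in the CPA group to 43.8.

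Transcription and chromatin genes were paired with 5 members at ratios of 0.572 to 0.628, namely JUNB, ZNF219 (TMEM253), ING1 (CARS2), PWWP3A (ENSG00000279488) and RFX7 (TEX9, also opposite MNS1). RNA binding and translation had the pairs with HNRNPA2B1 and EIF4E2, at 0.648 and 0.651. Metabolism, transport and glycosylation had 7 members at 0.579 to 0.655, opposite MAT2A, PANK2 (RNF24), AMDHD2 (CEMP1), GALNT9 (ENSG00000277011), ST3GAL2 (ENSG00000260111), MPDU1 (SOX15), and SLC22A4 with SLC22A5 (MIR3936HG). Membrane traffic and secretion had 5 members at 0.566 to 0.643, among them those opposite VAMP1 (TAPBPL), SNX25 (LRP2BP) and SNAP47 (JMJD4). Cilium and cytoskeleton had 3, opposite MNS1, CSPP1 (ARFGEF1) and SYNM (SYNM-AS2), at 0.614 to 0.658.

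The other 24 coding genes were paired with 23 members at 0.455 to 0.6699. The features MMEL1, ZBTB12, DDX24, SPSB2, BAIAP2L1 and LRRC34 lie opposite PRXL2B, C2, OTUB2, LRRC23, BRI3 and LRRIQ4 in that order. NANS, NTMT1, BMP2K, ENSG00000251196 and C20orf144 lie opposite TRIM14, ASB6 with C9orf50, PAQR3, ANKRD33B and NECAB3. ENSG00000261779, PMS2P7, PROX2, SNRNP35, ENSG00000261396 and CHERP lie opposite C15orf39, SPDYE8, YLPM1, RILPL1, RIPOR1 and C19orf44. PIAS1, IER5L-AS1, DPP3-DT and TNK2-AS1 were named above, and KIAA1671 was read at ENSG00000279006 (58.1 CPM with CPA, 29.5 with synta-66) and ENSG00000279085 (22.4 and 12.2). The member ENSG00000279110 lies within its span, so these features share a locus. PMS2P7 and SPDYE8 belong to repeated gene families whose reads can be split between copies.

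The members without a coding exon opposite also lie under the limit that the rule sets. The 21 within the span of a coding gene had ratios of 0.153 to 0.653. Besides GPC1-AS1 they were SNCG, ENSG00000279019, MPRIP-AS1, AKAP5, ENSG00000235427, NME9, MIR133A1HG, GNE, SMCO3, ENSG00000258344, PLAC4, ENSG00000279110, IFIT1, SH3PXD2A-AS1, LPAR6, ENSG00000256897, ENSG00000256542, ENSG00000279539, ESR2 and PLPP5. The genes spanning them were MMRN2, CPNE2, MPRIP, ZBTB25, CAV1, ARMC8, MIB1, CLTA, C12orf60, CBX5 with NFE2, BACE2, KIAA1671, LIPA, SH3PXD2A, RB1, DDB2, GALNT9, ENSG00000268643, SYNE2 and DDHD2, in the same order. ENSG00000235427, in the span of the caveolin gene CAV1, had 26.8, 26.2 and 14.4 CPM in untreated, CPA and synta-66 cells. GALNT9 was thus met by ENSG00000277011 at its exons and by ENSG00000256542 in its span.

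The 24 members with no feature on the other strand ran from 0.297 to 0.668 and were USP24, DDR1, CCDC85B, STXBP5L, MIER1, LHFPL2, COL6A6, PSRC1, CD74, SERPINF1, WDR54, BCL2L13, ENSG00000260757, UBE2R2, MYCBP, DENND11, CTSB, MEGF11, RTKN, FBXW5, INPP5F, CRLS1, ECHDC2 and ITGA11. The 16 opposite noncoding exons only ran from 0.316 to 0.661 and were FAM13A, IRF2BPL, IFITM3, AKAP13, BRWD1, SH3BP5, DHRS12, GALNT7, SLC39A4, KAZN, ALDH1A3, MGC4859, PCIF1, TASOR2, PITPNB and MXI1. ENSG00000268050 and ENSG00000182584 are the pair not in GENCODE 44.

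Of the 40 members with neither a coding exon nor a coding span nor a missing annotation, 21 (52.5%) had the 3′ end of a coding gene within 5000 bases on the other strand. Among the other annotated features of the CPA window without a coding gene opposite, 161 of 535 (30.1%) did. The distance limit was chosen after the data were seen, and the shares are a description.

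Reads that the rule did not use are the coding genes' own counts, at their own strand. They come from the same 12 libraries but not from the same reads. Of the 70 coding genes, 69 are in the files and 57 passed the count filter. Own counts were below the member's count for 52 of the 69, and the median ratio of member to own reads was 3.84, with 4 genes that had no own read counted as the highest ratios. Members had to reach a mean of 10 CPM and own counts did not, so this gap follows in part from the rule. In the edgeR fit over 14911 features, 4 of 57 own counts (7.02%) fell with synta-66 relative to CPA and none rose. Among the own counts of all 2594 coding genes opposite a feature of at least 10 CPM, 2.74% fell and 2.51% rose. At an unadjusted p under 0.05, 10 of the 57 were lower and 6 higher, and DESeq2 called 6 lower and 0 higher. The median log2 fold change of the 57 was -0.17, against -0.04 over all tested features, and 37 of 57 were below 0 against 52.6% of all. The 4 genes that fell were RIN1, FAT2, ANKRD33B and TRAM2.

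RIN1 encodes a RAS effector that also activates RAB5 and ABL kinases, and it lies at chr11:66330241-66336840 on the minus strand. Its own count was 5.39, 6.59, 7.09 and 9.01 CPM untreated, 9.69, 6.94, 10.4 and 7.41 CPM with CPA, and 2.84, 2.68, 0 and 1.73 CPM with synta-66. The 0 allows up to 0.739 CPM in that library (3 counts, counting error only), and the gene averaged 24 reads per library. All 4 libraries with synta-66 were below the other 8. The edgeR log2 fold change against CPA was -2.26 ± 0.48 (SE, adjusted p = 0.00128). The member opposite, ENSG00000254756, had 211, 181, 184 and 238 CPM untreated, 236, 214, 240 and 244 CPM with CPA and 103, 145, 135 and 158 CPM with synta-66, so both strands were lower there.

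FAT2 encodes a giant atypical cadherin of squamous epithelia and lies at chr5:151504092-151591331 on the minus strand. Its own count was 2.70, 3.79, 4.93 and 3.198 CPM untreated, 5.86, 9.02, 7.66 and 6.54 CPM with CPA, and 2.03, 2.45, 1.48 and 2.17 CPM with synta-66. The libraries with synta-66 were the lowest of the 12 and the CPA libraries the highest. The log2 fold change against CPA was -1.82 ± 0.45 (SE, edgeR adjusted p = 0.00636), on a mean of 17.9 reads per library, and the change with CPA alone was 0.99 ± 0.42 (adjusted p = 0.222). Relative to untreated cells, FAT2 with synta-66 was not called, at -0.83 ± 0.47 (adjusted p = 0.441). The member opposite, ENSG00000271795, stood at 209 ± 27.0, 217 ± 37.1 and 100.3 ± 8.96 CPM in untreated, CPA and synta-66 libraries (SD, n = 4).

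ANKRD33B, an ankyrin repeat gene, stood at 9.31 ± 2.18 CPM untreated, 7.49 ± 2.63 with CPA and 2.74 ± 0.804 with synta-66 (SD, n = 4), with 1 CPA library at 3.57 CPM, below the highest library with synta-66. Its log2 fold change was -1.41 ± 0.40 (SE, edgeR adjusted p = 0.0194). TRAM2, a gene of the translocation machinery involved in collagen synthesis, stood at 17.0 ± 4.65, 26.9 ± 5.93 and 15.6 ± 2.78 CPM (SD, n = 4), with a log2 fold change of -0.77 ± 0.22 (SE, adjusted p = 0.0261). Both calls were lost when certain single libraries were left out, with adjusted p of up to 0.0641 for ANKRD33B (without CPA replicates 3 or 4, or synta-66 replicates 2 or 4) and up to 0.0943 for TRAM2 (without CPA replicates 1, 2 or 3, or synta-66 replicates 2 or 4). Without the 3 libraries richest in mitochondrial ribosomal RNA they were 0.126 and 0.135. RIN1 and FAT2 were called whichever single library was left out, and RIN1 and ANKRD33B were also called lower than in untreated cells, at log2 fold changes of -1.98 ± 0.49 and -1.73 ± 0.39. That was 2 of 57, against 1.16% of the 2594 genes, and 1 of 57, TRIM14, was higher than in untreated cells (0.69 ± 0.08), against 2.24%. TRAM2 was not called against untreated cells, at -0.12 ± 0.23 (SE, edgeR adjusted p = 0.895).

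Without the 1.5-fold limit, 9 own counts passed an adjusted p of 0.05, where 7.11% of all features did, and 3 abundant ones among them did so in the direction opposite to their members. SNAP47, a SNARE gene, went from 355 to 416 CPM across CPA libraries to 512 to 544 CPM with synta-66, a log2 change of 0.42 ± 0.07 (SE, edgeR adjusted p = 0.000103). ASB6 changed by 0.34 ± 0.08 (adjusted p = 0.00205) and TRIM14 by 0.30 ± 0.08 (adjusted p = 0.0119). By the strand rule the reads at SNAP47, ASB6 and TRIM14 are also those opposite their partners JMJD4, NTMT1 and NANS. MPDU1 and FZD4, at -0.33 and -0.26, passed in the direction of their members.

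Other genes opposite abundant members had few reads of their own and were not called. MAT2A stood at 14.01, 15.2 and 16.7 CPM in untreated, CPA and synta-66 libraries with a log2 change of 0.13 ± 0.24 (adjusted p = 0.842). JUNB stood at 3.18, 1.84 and 3.80 CPM (0.99 ± 0.63, adjusted p = 0.427) and IER5L at 4.66, 2.07 and 1.98 CPM (-0.17 ± 0.64, adjusted p = 0.933). Changes of the size seen at the members were not detectable at this depth for the latter pair. LAMA5, at 413, 404 and 463 CPM, was deep enough to compare and changed by 0.20 ± 0.08 (adjusted p = 0.146), while LAMA5-AS1 opposite was lower. By the strand rule the reads at LAMA5 may come from a gene facing it. ADRM1, which meets 244 of its exon bases on the other strand, had a mean of 24.4 CPM at its own locus.

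CPA by itself changed none of the 57 own counts by the call used here, against 0.964% lower and 2.04% higher among the 2594 coding genes. At an unadjusted p under 0.05, 3 were lower and 7 higher, and DESeq2 called 0. At any fold 3 own counts passed the adjusted p, where 4.39% of all features did. TRIM14, a gene of antiviral signalling, passed with a change of 0.39 ± 0.08 (edgeR adjusted p = 0.000929), SNAP47 with -0.27 ± 0.07 and C19orf44 with -0.49 ± 0.15.

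**Figure D4:**
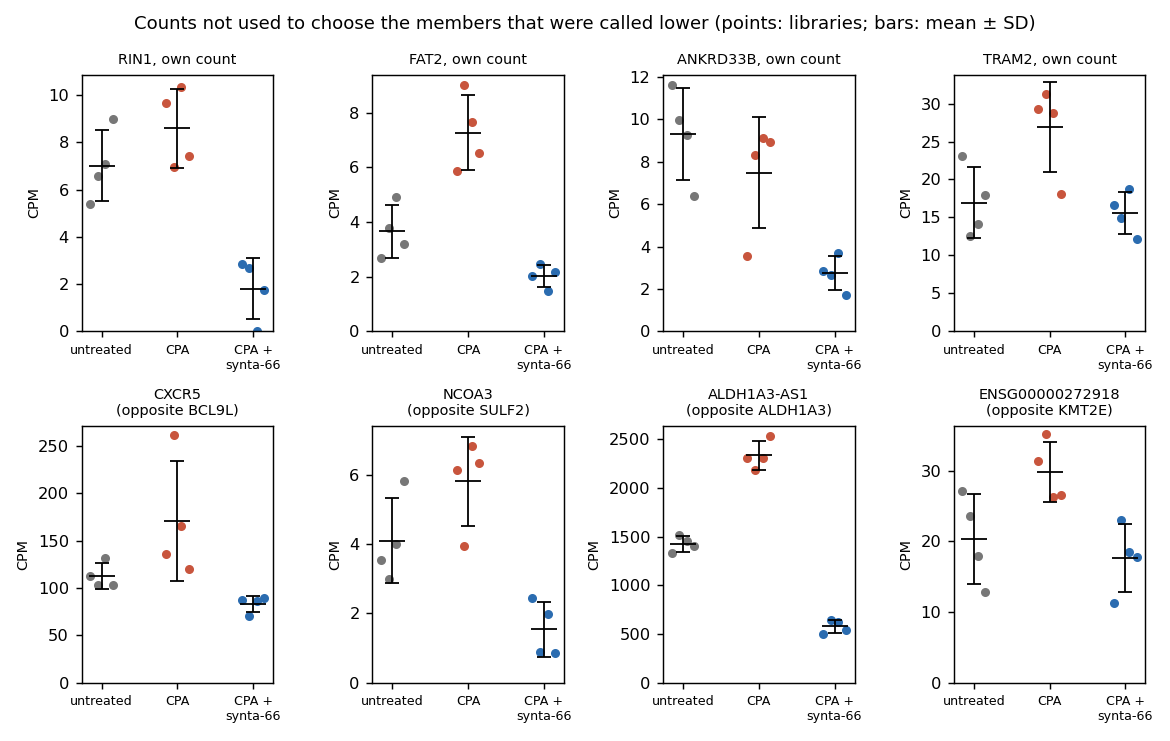
CPM in each library (points) with mean ± SD over 4 libraries (bars) for the 8 counts outside the rule that were called lower with synta-66 than with CPA, each panel with its own vertical axis from 0. CPA and synta-66 libraries overlap for ANKRD33B, which has a CPA library at 3.57 CPM, and for TRAM2, and do not overlap in the other 6 panels.

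A second feature over the same coding gene gave another reading of that gene outside the rule. There were 31 such features, of which 27 passed the count filter, over 21 coding genes. With synta-66, 2 of 27 (7.41%) fell relative to CPA and 0 rose, against 2.82% and 1.94% of all features tested in edgeR. At an unadjusted p under 0.05, 6 were lower and 0 higher, and DESeq2 called 2 lower and 0 higher. Their median log2 fold change was -0.33, and 21 of 27 were below 0.

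CXCR5, a chemokine receptor gene, overlaps 3913 exon bases of BCL9L on the other strand. It had 112, 103, 132 and 103 CPM untreated, 136, 262, 165 and 120 CPM with CPA, and 87.1, 70.7, 86.7 and 89.3 CPM with synta-66. The libraries with synta-66 were the lowest of the 12. The log2 fold change against CPA was -1.03 ± 0.15 (SE, edgeR adjusted p = 2.13e-06), and it was called with any single library left out. Relative to untreated cells, CXCR5 with synta-66 was not called, at -0.44 ± 0.15 (adjusted p = 0.0929). CXCR5 also rose with CPA (1 of 27 second features rose and 0 fell, against 1.81% and 1.05% of all features), by 0.59 ± 0.14 (adjusted p = 0.00706), a call that was lost without CPA replicate 2 (0.31, adjusted p = 0.163) and in DESeq2 (adjusted p = 0.0822). It also dropped under 1.5-fold without untreated replicates 2 or 4 (both 0.55), and under the replicate block (0.56).

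NCOA3, a nuclear receptor coactivator gene that overlaps 247 exon bases of SULF2, stood at 4.09, 5.80 and 1.54 CPM and fell by 1.90 on the log2 scale (SE 0.51, edgeR adjusted p = 0.0125). That call was lost without synta-66 replicate 2 (adjusted p = 0.0540). Relative to untreated cells, NCOA3 with synta-66 was not called, at -1.40 ± 0.52 (SE, edgeR adjusted p = 0.147). ENSG00000267755 over PWWP3A and ENSG00000228838 over LRP8 were lower below the fold limit, at -0.49 and -0.57 (adjusted p = 0.0128 and 0.0219). Other second features did not pass, such as TSC2 over PKD1 at -0.08 and ENSG00000275582 over PANK2 at 0.00.

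Coding members can themselves lie opposite a noncoding feature, and by the strand rule that feature may hold reads of the coding gene. This reading was added after the data were seen. It gave 27 features opposite 20 coding members, and 22 were tested. With synta-66, 2 of 22 (9.09%) fell relative to CPA and 0 rose in edgeR, against 2.82% and 1.94% of all features tested. With CPA against untreated, 2 of 22 rose and 0 fell, against 1.81% and 1.05%. For synta-66 against CPA at an unadjusted p under 0.05, 6 were lower and 3 higher, and DESeq2 called 2 lower and 0 higher. The median log2 fold change was -0.17.

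ALDH1A3-AS1 on chromosome 15 overlaps 1715 exon bases of ALDH1A3, which encodes a retinaldehyde dehydrogenase that makes retinoic acid. Its level was 1425 ± 80.6 CPM untreated, 2333 ± 147 with CPA and 578 ± 66.6 with synta-66 (SD, n = 4). None of the groups overlapped. It rose with CPA by 0.70 ± 0.07 (SE, edgeR adjusted p = 1.71e-09) and fell with synta-66 relative to CPA by 2.00 on the log2 scale (SE 0.08, adjusted p = 9.78e-24), to below the untreated level (-1.30, adjusted p = 1.82e-17). The member ALDH1A3 had far fewer reads, at 32.7, 31.4 and 18.3 CPM in the same order, with a CPA to untreated ratio of 0.958 that the rule had limited. The difference between the strands was not tested.

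ENSG00000272918, which meets 45 exon bases of KMT2E, was lower by 0.73 (SE 0.22, edgeR adjusted p = 0.0308), a call lost without CPA replicates 1 or 2 or synta-66 replicates 1, 3 or 4 (adjusted p of up to 0.128) and without the 3 libraries rich in mitochondrial ribosomal RNA (adjusted p = 0.240). Relative to untreated cells, ENSG00000272918 with synta-66 was not called, at -0.20 ± 0.22 (SE, edgeR adjusted p = 0.775). ENSG00000259407, opposite AKAP13, rose with CPA by 0.61 ± 0.14 (adjusted p = 0.00568) and differed by -0.35 with synta-66 (adjusted p = 0.157). Its rise dropped under 1.5-fold, to 0.54, without untreated replicate 3, without CPA replicate 2 and without the 3 libraries. ENSG00000273729, opposite IRF2BPL, was lower with synta-66 than in untreated cells by 0.65 (adjusted p = 0.00167). FAM13A-AS1 and SH3BP5-AS1, opposite FAM13A and SH3BP5, were not called, at 0.49 (adjusted p = 0.221) and 0.21 (adjusted p = 0.208), in the direction opposite to the members. ENSG00000226647, opposite TASOR2, was higher with synta-66 than with CPA by 0.38 (adjusted p = 0.0499), under the fold limit and also against the direction of its member.

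**Figure D5:**
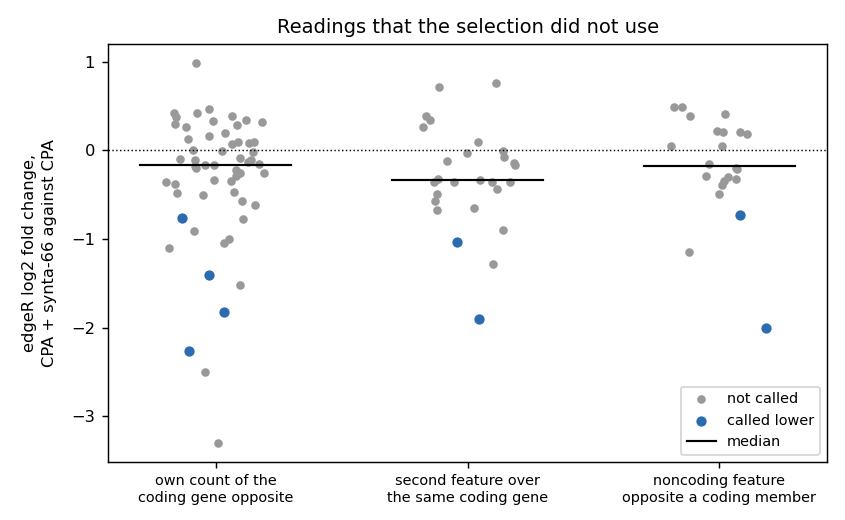
The edgeR log2 fold change of CPA with synta-66 against CPA (vertical axis) for 57 own counts of coding genes opposite members, 27 second features over those genes and 22 noncoding features opposite coding members, with the median as a line and called features in blue. The medians of -0.17, -0.33 and -0.17 lie below 0, and most points are not called.

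The bases before the start of 3 genes whose counts outside the rule were lower are shown, because members that move together may be compared for shared motifs. They are the 250 bases before the start in RefSeq on GRCh38.p14, read 5′ to 3′ on the gene's strand, at chr11:66336435-66336684, chr5:151591332-151591581 and chr15:100879581-100879830. For RIN1 the RefSeq start differs from that in GENCODE. Its stretch lies inside the GENCODE span of chr11:66330241-66336840 and so is not upstream of the start used above. Capitals mark GCGTG, the core of the aryl hydrocarbon receptor site, and GGAAA, the core of NFAT sites, on either strand.
RIN1: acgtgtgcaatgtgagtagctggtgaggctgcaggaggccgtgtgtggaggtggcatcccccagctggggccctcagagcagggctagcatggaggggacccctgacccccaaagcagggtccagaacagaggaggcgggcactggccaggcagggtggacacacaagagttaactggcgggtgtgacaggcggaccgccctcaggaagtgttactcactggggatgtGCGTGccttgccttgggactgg
FAT2: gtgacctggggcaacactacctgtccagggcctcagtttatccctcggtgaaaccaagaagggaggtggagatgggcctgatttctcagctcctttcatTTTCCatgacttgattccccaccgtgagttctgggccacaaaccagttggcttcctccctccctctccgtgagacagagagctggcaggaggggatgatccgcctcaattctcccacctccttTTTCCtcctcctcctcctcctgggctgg
ALDH1A3: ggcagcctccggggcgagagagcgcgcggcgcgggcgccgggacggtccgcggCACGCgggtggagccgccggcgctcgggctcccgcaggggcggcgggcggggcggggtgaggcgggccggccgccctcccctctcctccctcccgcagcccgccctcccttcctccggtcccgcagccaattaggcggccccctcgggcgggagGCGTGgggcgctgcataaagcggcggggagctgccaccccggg
RIN1 holds 1 GCGTG, ALDH1A3 holds 2 GCGTG and FAT2 holds 2 GGAAA.

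The same bases were found for 60 of the 70 coding genes opposite members, and both strands were searched for 5 motifs, none of which contains another. GCGTG was present in 25 (41.7%) against 39.2% of 15843 coding gene promoters. GGAAA was present in 24 (40%) against 54.4%, and the E-box CACGTG in 8 (13.3%) against 7.84%. GGAATG, the site of TEAD factors, was present in 7 (11.7%) against 10.1%, and TGANTCA, the AP-1 site, in 1 (1.67%) against 5.04%. A match is a description of the letters and not of binding.

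Other genes, in lists chosen with earlier results known, were read at their own locus and at the feature opposite. Of all tested features 1.94% rose and 2.82% fell with synta-66 relative to CPA, and single calls in lists of this size are not read as a change of the list. For the machinery of store-operated calcium entry, 0 of 12 own counts and 0 of 7 opposite features changed with synta-66 relative to CPA in edgeR, and DESeq2 called 0 of either. At an unadjusted p under 0.05, 2 own counts were higher and 1 lower. The channel gene ORAI1 stood at 1.45, 0.979 and 3.37 CPM in untreated, CPA and synta-66 cells (adjusted p = 0.177), and the inositol trisphosphate receptor gene ITPR3 was read opposite at UQCC2 with 547, 617 and 567 CPM.

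Among receptor tyrosine kinases and adaptors, 1 of 14 own counts fell, which was the member DDR1, and 0 of 6 opposite features did. In the Wnt list the ligand gene WNT10A fell by 2.30 on the log2 scale (SE 0.55, edgeR adjusted p = 0.00487), 1 of 8 own counts, and 0 of 3 opposite features changed. Of aryl hydrocarbon receptor targets, 0 of 7 own counts and 1 of 4 opposite features fell, and the latter was CYP1B1, read at the feature that the rule leaves out. Of SRF and MRTF targets, 0 of 10 own counts changed and 1 of 5 opposite features fell, which was the vinculin gene VCL at AP3M1 (-1.49 ± 0.22, adjusted p = 2.78e-06).

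Other called genes of the lists were higher with synta-66. Of YAP and TEAD targets, 3 of 17 own counts rose (F3, FJX1 and GADD45A, by 0.74, 0.99 and 1.79), where DESeq2 called 2 of the 17, and 1 of 5 opposite features did (PTPN14, 0.81). JAG1 of the Notch list rose at its opposite feature by 0.65 (1 of 3), SLC7A11 of the NRF2 list by 1.55 (1 of 5), and WDR43 and RBM39 of the MYC and splicing lists rose at their own loci by 1.06 (1 of 15) and 0.86 (1 of 14). No own count of the Notch (5) and NRF2 (9) lists and no opposite feature of the MYC (4) and splicing (1) lists was called. For CPA with synta-66 against CPA, edgeR called no gene of p53 targets (11 own and 7 opposite) or TGF-beta and SMAD targets (8 and 3). It also called none of chromatin regulators (13 and 4), short-lived transcription factors (14 and 4) and squamous markers (12 and 4). DESeq2 called none in these lists for that contrast. At an unadjusted p under 0.05 these held 4 higher and 5 lower own counts and 2 higher and 3 lower opposite features. Of 14 fibroblast, immune and endothelial markers 2 had tested own counts, and 0 passed at either level or in DESeq2. Among the other counts of 0 above, unadjusted p under 0.05 was met by 1 lower own count of the aryl hydrocarbon receptor list, which DESeq2 also called, by 2 higher and 1 lower own counts of the SRF list, by 1 higher and 1 lower opposite features of the receptor tyrosine kinase list, by 1 higher of the MYC list and by 1 lower of the splicing list.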

How the data were processed

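RNA of HSC-3 cells was sequenced in 12 libraries, 4 per group. The authors deposited raw counts of reads per gene, which they had not normalized. Per the labels' protocols, reads were trimmed with Trimmomatic 0.32 (0.36 per the submitters' processing notes), aligned with STAR 2.5.2a to GRCh38 with Ensembl 84 and counted with HTSeq 0.6.1p1 as a stranded library. The 5 closing lines of unassigned reads were left out.

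CPM used TMM-scaled library sizes. The test was edgeR 4.0.16 (R 4.3.3) with a quasi-likelihood fit to all 12 libraries and no term but the group, after the study's filter (5 reads in at least 2 of 4 libraries of a group). Adjusted p-values are Benjamini-Hochberg values over 14911 features. A call needs an adjusted p under 0.05 and a change of 1.5-fold. The SE is the log2 fold change divided by the square root of the F statistic. The steps were tested on simulated counts for CPA with synta-66 against CPA, with changes set in features of at least 10 CPM. Of 50 changes of 1.5-fold, 17 were called, and of 50 changes of 2-fold, 42 were called. Another 5 calls fell on features with no change set, among 14911 simulated in all. Changes at levels under 10 CPM, such as the own counts of RIN1, FAT2 and ANKRD33B, were not simulated. Libraries of 1 group differed by more than sampling noise in every pair, so none was counted as a duplicate. Intervals of counting error are given only for a count of 0.

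The members, the gene lists, the overlap of 30 bases and the tests were chosen with earlier results of these data known. Named members are the 12 with the lowest ratio, the 8 with the highest mean, those whose opposite gene is in a list or has a called own count or second feature, and the 3 nearest the threshold on each side, with up to 4 called genes of each list. Other members were named without this rule, and a few members and 1 gene list are not reported here. The counts and ranges include them. A few own counts and second features outside the rule were chosen after their values were seen. Roles of the coding genes were assigned by hand. The alternatives were DESeq2 1.42.0, other scalings, filters, thresholds and overlaps, leaving out single libraries, and a block for the replicate number. Those without the 3 libraries rich in mitochondrial ribosomal RNA were added after seeing the data.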

Additional observations from a re-analysis of the deposited data

Results flagged for a closer look

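A single library stood apart from the other 3 of its group by Dixon's 95% criterion in 4 of 99 tested sets of 4 values, where chance gives about 5%. In ENSG00000271795, opposite FAT2, CPA replicate 2 had 272 CPM and the other CPA libraries 193 to 202 CPM. In ITGA11, CPA replicate 2 had 38.2 CPM and the others 22.7 to 24.4 CPM. For the own count of ANKRD33B, CPA replicate 1 had 3.57 CPM and the others 8.33 to 9.11 CPM. For CXCR5, opposite BCL9L, replicate 2 of CPA with synta-66 had 70.7 CPM and the others 86.7 to 89.3 CPM.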

How the results depend on the processing

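The number of features that meet the rule depended on its limits and on the libraries. It was 950 with library totals in place of TMM scaling (76 of the 128 members among them), 255 with a minimum of 5 CPM, 58 with a minimum of 20 CPM, 69 with a ratio of at most 0.6, 58 with a narrower CPA window and 216 without the 3 libraries rich in mitochondrial ribosomal RNA (95 of the 128 among them). With 1 library left out it ran from 117 to 174, and 37 of the 128 members met the rule in every such case, with 85 kept without CPA replicate 2. The log2 ratio of ENSG00000261396 ran from -0.83 to 0.175, the latter without CPA replicate 2. With an adjusted p and no fold limit, 9 own counts and 4 second features were called with synta-66 against CPA, and 655 features and 3 own counts with CPA against untreated. An overlap of 100 bases left 1 second feature. Without the 3 libraries, 2 own counts, 4 second features and 1 noncoding feature were called. With 1 library left out, 323 to 472 features were called lower with synta-66 than with CPA, and 2 to 5 own counts, 1 to 3 second features and 1 to 2 noncoding features were called. For CPA against untreated these were 356 to 440 features and 0 to 1 own counts. The cause of these shifts was not tested.

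With the replicate number as a block, 431 features were called lower with synta-66, and 4 own counts, 2 second features and 2 noncoding features; for CPA against untreated, 442 features and 0 own counts. Samples of the same number correlated between -0.131 and 0.209, 2 of 12 pairs were over 0.1, and 4 of 12 samples correlated best with their own number. These correlations show no clear pairing and cannot establish whether the numbers mark a shared origin. Own counts of under about 20 reads per library limit what could be detected.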
